A study of Mus musculus with 12 samples.

Results

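The genes described here carry glucose into lactate, store it as glycogen and move lactate and pyruvate across membranes. They are 35 gene symbols chosen by name, with earlier results of these data known. All 35 were found among the 52636 genes of both count tables. They occupy 36 rows because Aldoa is listed under 2 identifiers, of which the second held no count in any library and was not used. Neutrophils and monocytes came from the bone marrow of C57BL/6 J mice that were 8 to 12 weeks old, per the study's methods. Neutrophils were enriched and treated fresh in RPMI, whereas monocytes were first grown for 3 days in DMEM/F12 with 10 ng/ml M-CSF, which the labels call monocyte/macrophage and which are called macrophages here. Each cell type received 1 nM calcitonin gene-related peptide (CGRP), a neuropeptide of sensory nerves, or saline (PBS) for 4 h, to find which transcripts CGRP alters in each. The 4 groups were therefore neutrophils with saline, neutrophils with CGRP, macrophages with saline and macrophages with CGRP, with 3 libraries in each. The sources used here do not say whether the 3 libraries came from separate mice or cultures, so p-values measure only the spread between these samples, which may be technical.

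Library totals ran from 2002559 to 3631989 UMI counts, and values are given as CPM, counts scaled to library size, on a scale common to the 12 libraries. A level of 3 counts, taken as the floor, is 0.861 to 1.51 CPM. The labelled cell types matched their markers: all 12 neutrophil markers were lower and all 12 macrophage markers higher in the saline macrophages. Ly6g, the neutrophil surface marker, read 857, 1034 and 708 CPM in the saline neutrophils and 0, 0.899 and 0.719 CPM in the saline macrophages. The neutrophil libraries also held transcripts of other marrow cells. Their 6 erythroid markers summed to between 5773 and 7381 CPM and their 4 neutrophil precursor markers to between 3091 and 3931 CPM, with Hbb-bs and Elane the most abundant. The macrophage markers summed there to between 2334 and 2963 CPM. Those of basophils and mast cells summed to between 952 and 1166 CPM and those of eosinophils to between 523 and 642 CPM. In bulk RNA, fewer cells of a type and less RNA per cell cannot be told apart.

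Glucose enters through the facilitative transporters GLUT1 (Slc2a1) and GLUT3 (Slc2a3), is trapped by hexokinases and is split by glycolysis into pyruvate. Pyruvate either enters mitochondria through the carrier Mpc1/Mpc2 and the pyruvate dehydrogenase complex, which pyruvate dehydrogenase kinases switch off, or is reduced to lactate by lactate dehydrogenase and leaves through the monocarboxylate transporters MCT1 (Slc16a1) and MCT4 (Slc16a3). Side branches lead to glycogen and to the oxidative pentose phosphate pathway, which supplies NADPH. Neutrophils have few mitochondria and are known for living on glycolysis and on their own glycogen. Several of these genes are known targets of the hypoxia-inducible factor HIF-1.

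With CGRP, 3 of the 35 members passed the test in at least 1 cell type: the lactate exporter Slc16a3 in both, Ldha in neutrophils and Pdk1 in macrophages. In neutrophils, 2 of the 33 members tested were higher by limma-voom, Slc16a3 and Ldha, against a background of 1.51% of all genes tested, and 0 were lower, against 1.02%. The count of 0 lower members was the same in edgeR and DESeq2, and 7 of the 33 members, 3 of them with a negative change (G6pdx, Hk3 and Gys1), had an unadjusted p under 0.05, beside 12.8% of all genes tested. In macrophages, 1 of the 34 members tested was higher, Slc16a3, against 3.46% of all genes, and 1 was lower, Pdk1, against 3.97%. There 7 of the 34 had an unadjusted p under 0.05, beside 19.8% of all genes tested. The median log2 fold change of the members tested was -0.02 in neutrophils and 0.08 in macrophages, beside 8.01e-04 and 0.00465 over all genes tested. The CGRP and saline libraries did not overlap for 14 of the 33 members in neutrophils, beside 17.8% of all genes tested. In macrophages they did not overlap for 8 of the 34, beside 24.1%. The member share was above that of all genes in neutrophils and near it in macrophages, with no test of the difference. A separation of 3 from 3 libraries was common among all genes, and these shares include genes that passed. Aldoc and Pfkm in neutrophils and Slc2a3 in macrophages were not tested because their counts were too low.

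**Figure D1:**
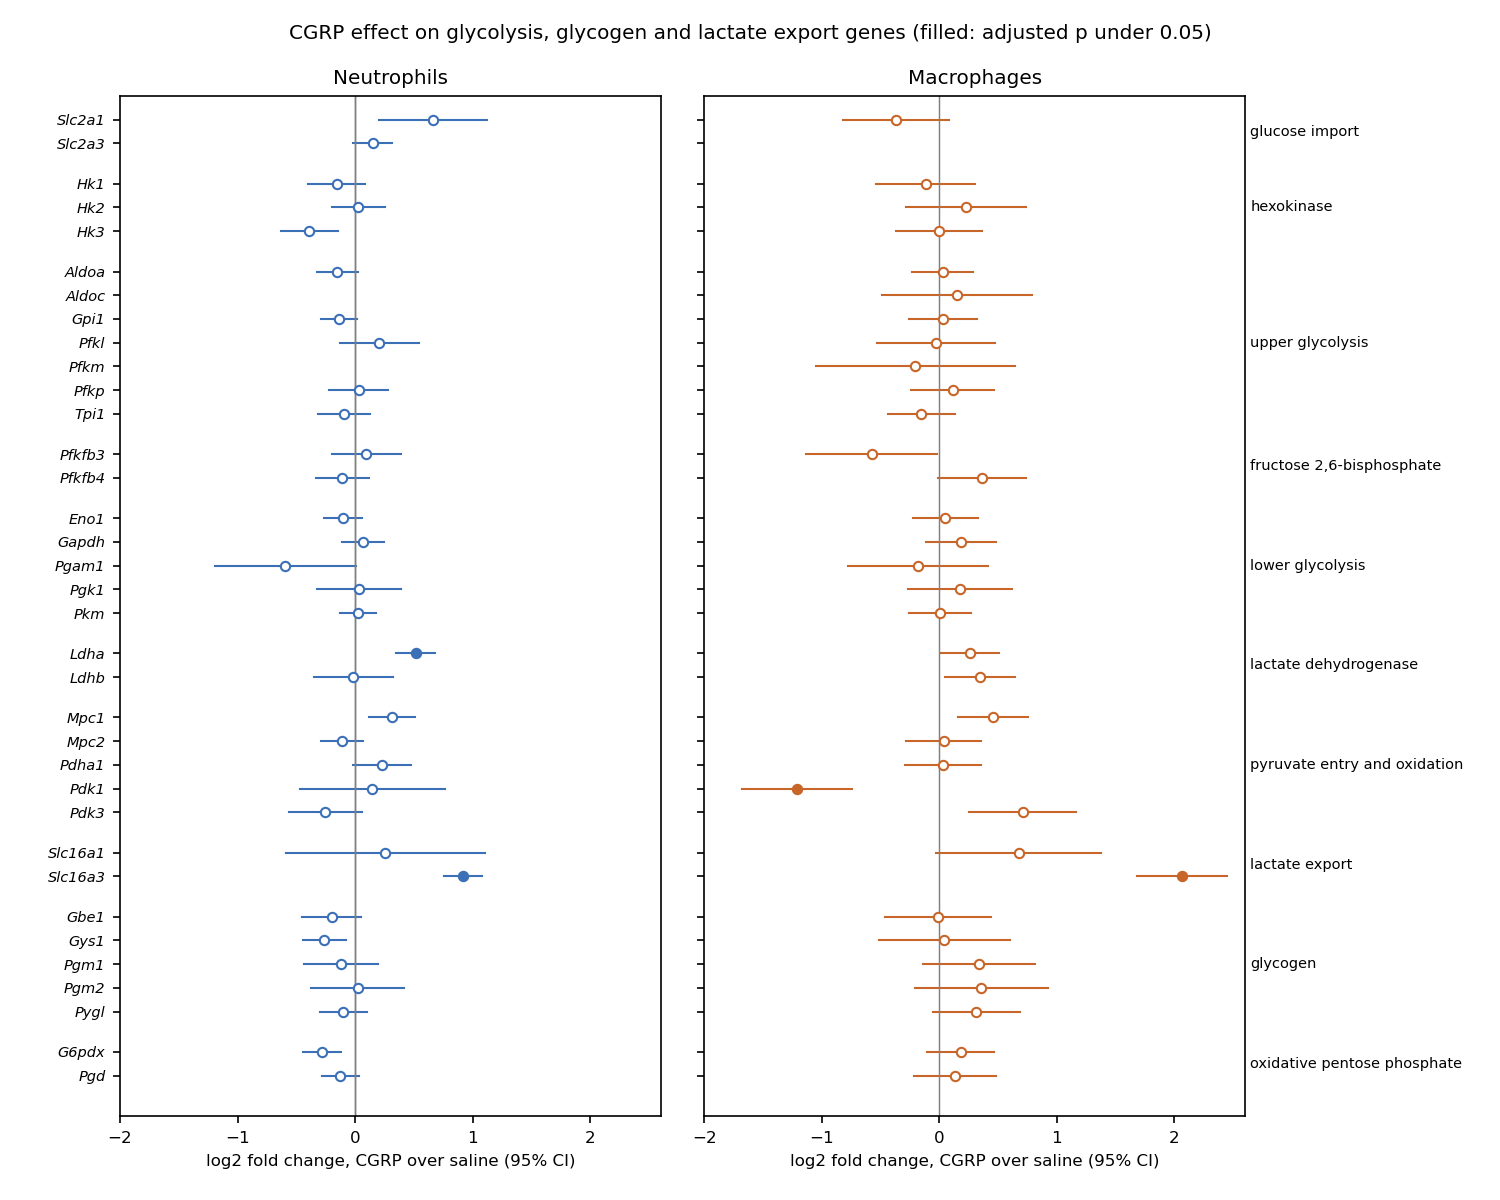
log2 fold change of CGRP over saline for each member tested, grouped by role, in neutrophils (left, 3 against 3 libraries) and macrophages (right, 3 against 3), with 95% confidence intervals and filled points for an adjusted p under 0.05 in limma-voom. Slc16a3 and Ldha are filled in neutrophils, Slc16a3 and Pdk1 in macrophages, and the other points are open.

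Slc16a3, which encodes the lactate exporter MCT4, rose in both cell types. Its level was 292, 303 and 316 CPM in the saline neutrophils and 570.3, 563 and 567 CPM with CGRP. The CGRP libraries lay close together and well above the saline ones, a rise of 1.89-fold (log2 fold change 0.92, SE 0.078, adjusted p = 2.18e-07, n = 3 and 3, limma-voom). In macrophages it read 38.2, 32.4 and 33.8 CPM with saline and 113, 163 and 169.6 CPM with CGRP. The groups did not overlap here either, with a rise of 4.17-fold (log2 fold change 2.06, SE 0.18, adjusted p = 1.97e-06, limma-voom). Even with CGRP the macrophages stayed below every neutrophil library. The gene lies at chr11:120948480-120960868, plus strand (GRCm38, GENCODE annotation), and none of the 31-base sequences of its longest transcript occurs in another annotated gene.

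Ldha (chr7:46841475-46855627, plus strand) encodes the lactate dehydrogenase subunit known for making lactate from pyruvate. It read 723, 765 and 704 CPM in the saline neutrophils and 1106, 951 and 1048 CPM with CGRP. Every CGRP library was above every saline library, and the rise was 1.43-fold (log2 fold change 0.51, SE 0.078, adjusted p = 3.70e-04, limma-voom). In macrophages the values were 941, 980.3 and 904 CPM with saline and 1133, 1100.1 and 1139 CPM with CGRP, groups that did not overlap but whose difference did not pass (log2 fold change 0.26, SE 0.12, adjusted p = 0.227, limma-voom). Ldhb, the subunit that favours pyruvate, gave a log2 fold change of -0.02 in neutrophils and 0.35 (adjusted p = 0.173) in macrophages by limma-voom. Slc16a1, the widely expressed transporter MCT1, was at most 12.2 CPM in the 12 libraries, its groups overlapped in both cell types, and its change did not pass. Ldhc, the lactate dehydrogenase of testis, was outside the 35 and read 14.2, 15.7 and 15.1 CPM in saline neutrophils against 173 CPM in the lowest and 202 CPM in the highest library with CGRP.

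**Figure D2:**
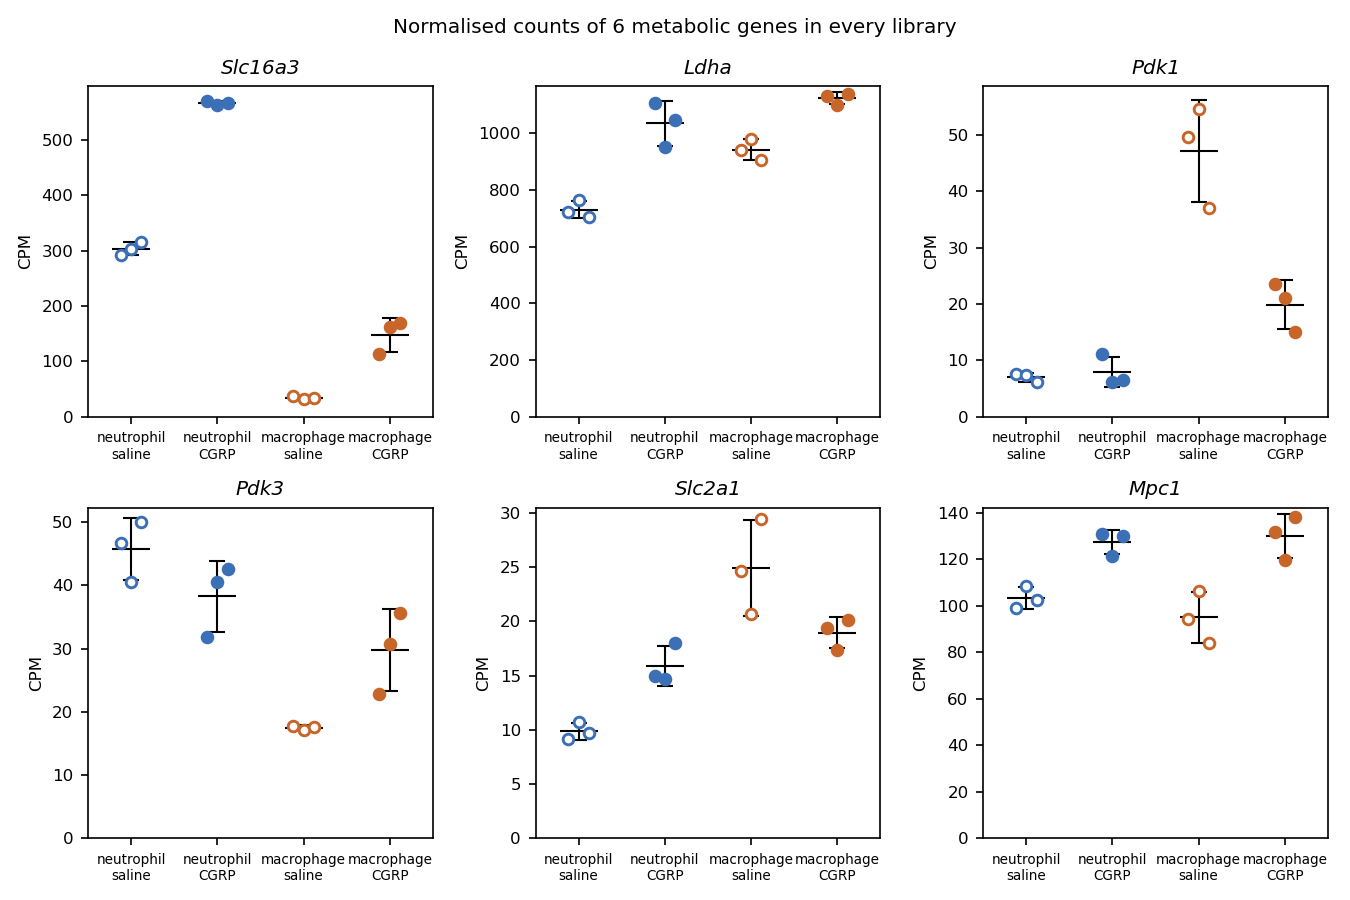
CPM of 6 members in each library (points, open for saline and filled for CGRP, blue for neutrophils and orange for macrophages) with the group mean and SD (bars), n = 3 libraries per group, each panel with its own linear axis from 0. Slc16a3 is higher with CGRP in both cell types without overlap, and Pdk1 is lower with CGRP in macrophages without overlap.

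The promoters of Slc16a3 and Ldha are shown because these were the members that rose with CGRP in neutrophils. CGRP receptors are known to raise cyclic AMP, whose transcription factor CREB binds the letters TGACGTCA or their first part TGACG, while HIF-1 binds ACGTG. The sequences come from RefSeq on GRCm38.p6 and run 5′ to 3′ from 250 bases before an annotated start to 50 bases from it, at chr11:120948817-120949116, plus strand for Slc16a3 and at chr7:46845554-46845853, plus strand, the first of 2 listed starts, for Ldha. Capitals mark TGACG and ACGTG on either strand, including where they overlap or stand inside TGACGTCA.
Slc16a3: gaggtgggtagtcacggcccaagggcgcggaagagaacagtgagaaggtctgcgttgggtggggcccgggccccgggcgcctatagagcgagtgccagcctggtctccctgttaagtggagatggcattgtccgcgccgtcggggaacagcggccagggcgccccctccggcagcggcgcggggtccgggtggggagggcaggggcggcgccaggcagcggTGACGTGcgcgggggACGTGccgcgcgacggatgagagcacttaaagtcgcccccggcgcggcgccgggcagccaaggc
Ldha: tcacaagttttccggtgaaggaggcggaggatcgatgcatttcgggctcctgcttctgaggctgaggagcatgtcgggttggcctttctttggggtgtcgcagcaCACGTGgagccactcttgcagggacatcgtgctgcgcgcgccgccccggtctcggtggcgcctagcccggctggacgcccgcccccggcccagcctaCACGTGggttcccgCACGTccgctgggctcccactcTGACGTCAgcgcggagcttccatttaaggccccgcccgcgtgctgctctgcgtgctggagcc

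The Slc16a3 promoter holds TGACG beginning at -29 and ACGTG beginning at -27 and -14, counted from the start as 0, and the first pair overlaps. The Ldha promoter holds TGACGTCA at -12, and it was the single member promoter of 49 with that sequence, against 1.79% of the 32851 promoters in the table. TGACG was in 20.4% of the member promoters and in 20.8% of all, and ACGTG in 46.9% and 19.6%, each counted on both strands in 300 bases. CACGTG, which contains ACGTG and occurs in the Ldha promoter, was in 8.16% and 7.15%. The 49 promoters belong to 34 of the 35 members, several with more than 1 start, and Slc2a3 had no entry. By member, 20 of the 34 held ACGTG and 8 held TGACG. Nearby starts of a member, as in Aldoa, can hold the same match and count it again. The set of all promoters was not matched to the members for base composition. These are matches of letters, and binding was not measured. Both promoters of Pdk1, the member that fell in macrophages, hold none of these sequences.

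At the entry of pyruvate into mitochondria, Pdk1 fell with CGRP in macrophages. Pdk1 (chr2:71873224-71903858, plus strand) and Pdk3 (chrX:93764607-93832201, minus strand) encode kinases that inhibit pyruvate dehydrogenase. Pdk1 read 49.6, 54.5 and 37 CPM with saline and 23.5, 21.1 and 15.1 CPM with CGRP. Each CGRP library was below each saline library, and the level with CGRP was 0.432 of that with saline (log2 fold change -1.21, SE 0.22, adjusted p = 0.00231, limma-voom). In neutrophils it was 7.59, 7.37 and 6.12 CPM with saline and 11.1, 6.16 and 6.58 CPM with CGRP, with overlapping groups. Pdk3 went from 17.8, 17.1 and 17.6 to 22.9, 30.7 and 35.7 CPM in macrophages without overlap, a difference just short of the threshold (log2 fold change 0.71, SE 0.21, adjusted p = 0.0558, limma-voom). In neutrophils Pdk3 read 46.8, 40.5 and 50.1 CPM with saline and 31.9, 40.5 and 42.5 CPM with CGRP, and the groups overlapped.

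Mpc1, a subunit of the mitochondrial pyruvate carrier, did not pass the test in either cell type, and its groups did not overlap. It read 99, 108 and 102 CPM against 131, 121 and 130.2 CPM with CGRP in neutrophils (log2 fold change 0.32, SE 0.094, adjusted p = 0.0923, limma-voom). In macrophages it read 94.4, 106 and 84.1 CPM against 132, 119.7 and 138 CPM (log2 fold change 0.45, SE 0.14, adjusted p = 0.0637, limma-voom). A share of 29.4% of the 31-base sequences in the last 500 bases of its longest transcript also occurs in other annotated genes, among them the pseudogene Mpc1-ps. Its partner subunit Mpc2 and Pdha1, the catalytic subunit of pyruvate dehydrogenase, had overlapping groups in both cell types.

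At the entry of glucose, the libraries of Slc2a1 separated in opposite directions in the 2 cell types. In neutrophils it read 9.17, 10.7 and 9.73 CPM with saline and 15, 14.7 and 18 CPM with CGRP. In macrophages it read 24.7, 20.7 and 29.5 CPM with saline and 19.4, 17.4 and 20.1 CPM with CGRP. Neither change passed the test (log2 fold change 0.67, adjusted p = 0.141 and -0.37, adjusted p = 0.371, limma-voom). Slc2a3, the high-affinity transporter of neutrophils, read 287, 289 and 281 CPM with saline and 331, 303 and 307 CPM with CGRP in neutrophils (log2 fold change 0.15, SE 0.079, adjusted p = 0.461, limma-voom). Among the hexokinases, which phosphorylate glucose, Hk2 had overlapping groups in both cell types, with 95% intervals of the log2 fold change of -0.20 to 0.25 in neutrophils and -0.28 to 0.74 in macrophages. Hk3, the myeloid hexokinase, read 95.8, 112 and 120.3 CPM against 77.7, 92.4 and 75.4 CPM with CGRP in neutrophils, where the groups did not overlap and the difference did not pass (log2 fold change -0.39, SE 0.12, adjusted p = 0.0885, limma-voom). The groups of Hk1 did not overlap there either (log2 fold change -0.16, SE 0.12, adjusted p = 0.643, limma-voom).

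The enzymes between glucose 6-phosphate and pyruvate did not pass the test in either cell type. The log2 fold changes of the upper steps (Gpi1, Pfkl, Pfkm, Pfkp, Aldoa, Aldoc and Tpi1, of which 5 were tested in neutrophils and 7 in macrophages) spanned -0.15 to 0.20 for neutrophils and -0.20 to 0.15 for macrophages. Those of the lower steps (Gapdh, Pgk1, Pgam1, Eno1 and Pkm) spanned -0.59 to 0.07 and -0.18 to 0.18. In neutrophils the groups of Gpi1, Eno1 and Pfkl did not overlap although their differences did not pass. Gpi1 read 833, 831 and 828 CPM with saline and 775, 733 and 731 CPM with CGRP (log2 fold change -0.14, SE 0.073, adjusted p = 0.45, limma-voom), and Eno1 464, 474 and 463 CPM against 449, 414 and 428 CPM (log2 fold change -0.10, SE 0.076, adjusted p = 0.642, limma-voom). Pfkl, the liver-type phosphofructokinase, read 21.5, 22.4 and 24.9 CPM against 26.3, 25.8 and 25.9 CPM (log2 fold change 0.20, SE 0.16, adjusted p = 0.673, limma-voom), the one of the 3 with higher values with CGRP. Pkm, which makes pyruvate, read 1344, 1423 and 1286 CPM with saline and 1387, 1314 and 1369.6 CPM with CGRP in neutrophils. Its macrophage levels were 1062, 953 and 944 CPM with saline and 891, 1056 and 1024 CPM with CGRP. The groups overlapped in both cell types, and the 95% intervals of its log2 fold change were -0.13 to 0.18 and -0.26 to 0.27. Pfkfb3, which makes the activator fructose 2,6-bisphosphate, read 17.5, 13.2 and 18.7 CPM with saline and 9.4, 13.7 and 9.56 CPM with CGRP in macrophages, with overlapping groups (log2 fold change -0.58, SE 0.26, adjusted p = 0.23, limma-voom). Its relative Pfkfb4 gave 0.36 (adjusted p = 0.274) there by limma-voom, and in neutrophils both had overlapping groups.

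The glycogen genes and the oxidative pentose phosphate genes did not pass either. Gys1, the glycogen synthase of most tissues, read 181, 184 and 197 CPM with saline and 156, 148 and 161 CPM with CGRP in neutrophils. The groups did not overlap, with a log2 fold change of -0.26 (adjusted p = 0.149) by limma-voom. In macrophages Gys1 was at 15.8, 11.1 and 12.2 CPM with saline and 10.3, 16.3 and 14.6 CPM with CGRP, and the groups overlapped. Pygl, the glycogen phosphorylase of liver and leukocytes, had overlapping groups in both cell types (log2 fold change -0.10, adjusted p = 0.742 and 0.32, adjusted p = 0.34, limma-voom). G6pdx, the first enzyme of the oxidative pentose phosphate branch, read 389.5, 383 and 385 CPM against 309.5, 309 and 325 CPM with CGRP in neutrophils, lower in each CGRP library but short of the threshold (log2 fold change -0.28, SE 0.078, adjusted p = 0.0618, limma-voom). The remaining Gbe1, Pgm1, Pgm2 and Pgd did not pass, with neutrophil groups that did not overlap for Pgm1 and Pgd, and their neutrophil log2 fold changes lay within -0.20 to 0.02, those of macrophages within -0.01 to 0.36.

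An interaction term over the 12 libraries tested whether CGRP acted differently on the 2 cell types. All 35 members were tested, 2 passed with a more positive log2 fold change in macrophages than in neutrophils, against 1.21% of all genes, and 0 passed with a more negative one, against 1.15%. For Slc16a3 the fold rise in macrophages was 2.22 times that in neutrophils (difference of log2 fold changes 1.15, SE 0.19, adjusted p = 0.00112, limma-voom). Its mean went from 34.8 to 148 CPM in macrophages and from 304 to 567 CPM in neutrophils. The rise in CPM was thus larger in neutrophils. Pdk3 differed by 0.97 (SE 0.26, adjusted p = 0.0478, limma-voom), but with 1 library removed at a time this held in 1 of 12 fits, that without the first macrophage CGRP library. For Pdk1 the difference was -1.34 (95% interval -2.15 to -0.53, adjusted p = 0.0748) and for Slc2a1 -1.02 (-1.64 to -0.41, adjusted p = 0.0714), both short of the threshold in the limma-voom fit without a block. Both passed with the replicate number as a block, and only Pdk1 with that block nested in cell type (chosen after seeing the data). With edgeR and DESeq2, Pdk1 passed (adjusted p = 0.0326 and 0.0255), so 1 member passed with a more negative change in macrophages with either tool. In the limma-voom fit 8 of the 35 members had an unadjusted p under 0.05, beside 13.2% of all genes tested. For other central members, the 95% intervals of the difference were -0.33 to 0.76 for Hk2, -0.28 to 0.27 for Pkm, -0.51 to 0.03 for Ldha and -0.23 to 0.85 for Gys1. The intervals were -1.25 to -0.08 for Pfkfb3 and 0.00 to 0.85 for Pygl, which leave out 0 but belong to changes that did not pass after adjustment.

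More members differed between the saline cell types than with CGRP. Of the 35 members, 21 were lower in macrophages, against 35.5% of all genes tested, and 7 were higher, against 33.0%. The median log2 fold change of the members was -0.69 beside -0.03 over all genes. The 35 genes together took 0.838 to 0.899% of the counts in the saline neutrophils and 0.514 to 0.608% in the saline macrophages, with 0.898 to 0.94% and 0.563 to 0.616% with CGRP. Cell type, transcripts of other marrow cells, medium, days in culture with M-CSF and count table go together in this comparison and cannot be told apart.

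**Figure D3:**
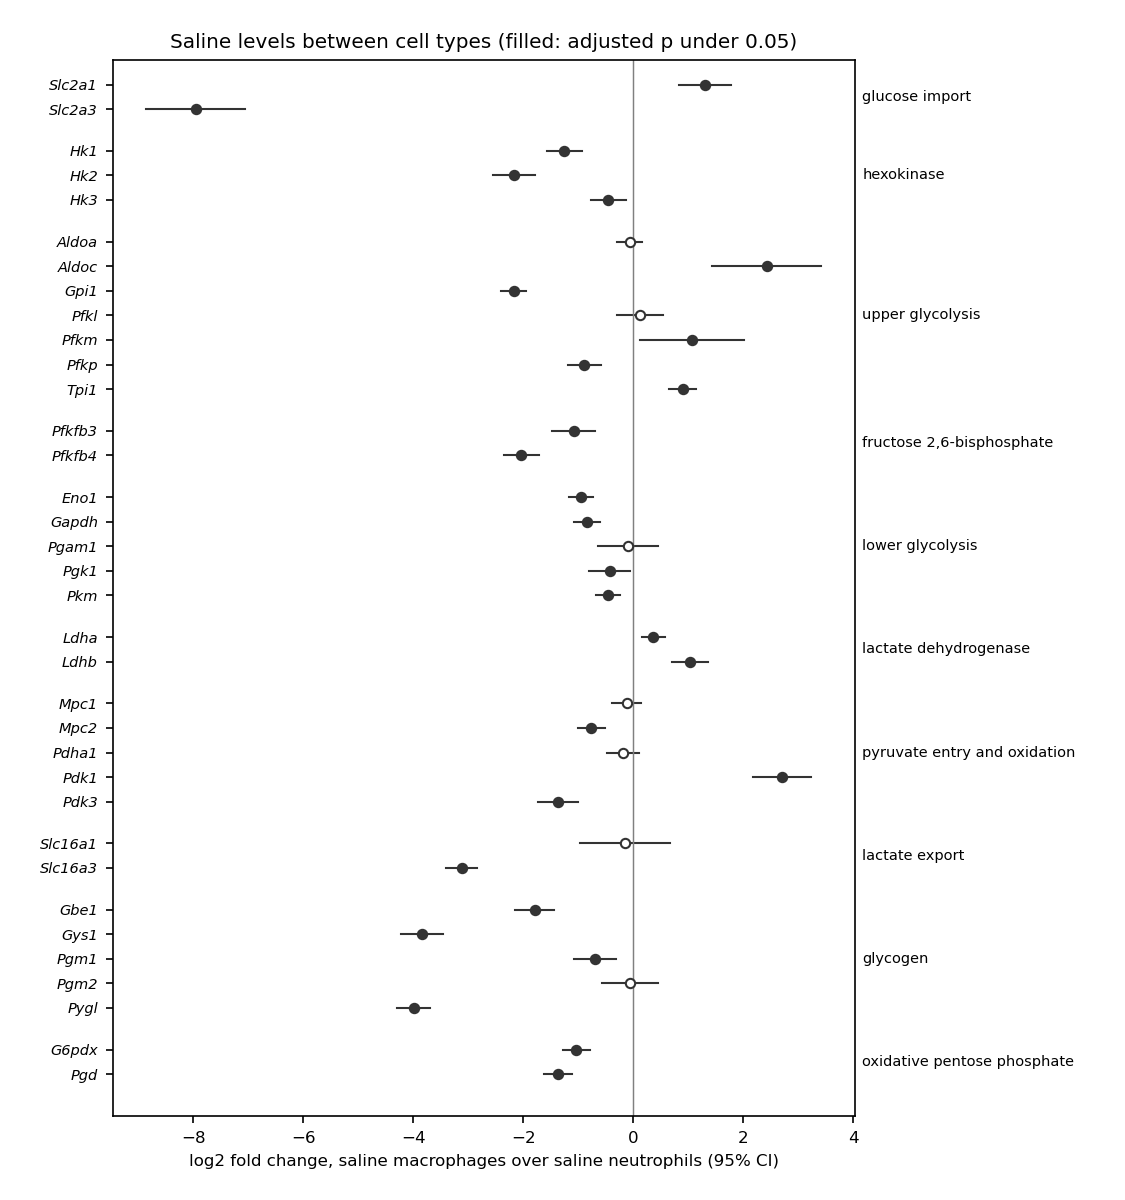
log2 fold change of saline macrophages over saline neutrophils for the 35 members by role (3 against 3 libraries), with 95% confidence intervals and filled points for an adjusted p under 0.05 in limma-voom. Points to the left are lower in macrophages. Slc2a3 lies farthest left, followed by Pygl, Gys1 and Slc16a3, and Pdk1 lies farthest right.

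Glycogen genes were among the members with the widest gaps. Pygl, which releases glucose from glycogen, read 751, 796 and 623 CPM in neutrophils and 46.2, 39.3 and 51.1 CPM in macrophages. That is 0.0629 of the neutrophil level (log2 fold change -3.99, SE 0.14, adjusted p = 2.45e-14, n = 3 and 3, limma-voom), far outside the spread of either group. Gys1 read 181, 184 and 197 CPM and 15.8, 11.1 and 12.2 CPM (log2 fold change -3.84, SE 0.18, adjusted p = 1.43e-12, limma-voom). The branching enzyme Gbe1 was lower as well, with 67, 74.3 and 59.4 against 19.5, 19.5 and 18.3 CPM (log2 fold change -1.79, SE 0.17, adjusted p = 2.13e-08, limma-voom). The groups of these 3 genes were far apart. The phosphoglucomutase listed as Pgm1 (ENSMUSG00000029171) was lower (log2 fold change -0.69, adjusted p = 0.00221, limma-voom) and the one listed as Pgm2 (ENSMUSG00000025791) did not pass, with a 95% interval of -0.56 to 0.44. Current annotations exchange these 2 symbols.

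Glucose import differed by transporter. Slc2a3 read 287, 289 and 281 CPM in neutrophils and 2.01, 0.599 and 0.719 CPM in macrophages, where it summed to 11 counts over the 3 libraries, with 2 of them under the floor. Its level was 249.7-fold higher in neutrophils, with a 95% counting interval of 139 to 501 that covers counting error only. A single macrophage library held 7 of the 11 counts, so the size is uncertain. The gene passed the filter through the neutrophil libraries. Slc2a1 went the other way, with 9.17, 10.7 and 9.73 CPM in neutrophils and 24.7, 20.7 and 29.5 CPM in macrophages (log2 fold change 1.30, SE 0.23, adjusted p = 5.23e-05, limma-voom). All 3 hexokinases were lower in macrophages. Hk2 fell furthest, from 99.3, 112 and 89 to 17.8, 21.6 and 29.5 CPM (log2 fold change -2.17, SE 0.18, adjusted p = 3.97e-09, limma-voom), and Hk1 by less (-1.25, adjusted p = 6.42e-07 on the log2 scale). Hk3 gave -0.45 (adjusted p = 0.0132) with groups that overlapped, and it did not pass with upper-quartile scaling or in 3 of 6 fits with a library removed.

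More of the glycolytic enzymes that passed were lower in macrophages than higher. Gpi1, which converts glucose 6-phosphate to fructose 6-phosphate, read 833, 831 and 828 CPM in neutrophils and 181, 166 and 207 CPM in macrophages (log2 fold change -2.18, SE 0.11, adjusted p = 4.89e-12, limma-voom). The platelet-type phosphofructokinase Pfkp (-0.89, adjusted p = 2.87e-05), Pfkfb4 (-2.03, adjusted p = 8.96e-10) and Pfkfb3 (-1.08, adjusted p = 5.54e-05) were also lower on the log2 scale. Of the lower steps, Eno1 (-0.95, adjusted p = 2.30e-07), Gapdh (-0.84, adjusted p = 2.88e-06) and Pkm (-0.45, adjusted p = 7.83e-04) were lower in limma-voom. Pgk1 was lower by less (-0.43, adjusted p = 0.0431), a call lost in DESeq2 (adjusted p = 0.0957) and in 5 of 6 fits with a library removed. The enzymes that were higher in macrophages were Tpi1, at 138, 165 and 141 against 299.8, 280.2 and 247 CPM (log2 fold change 0.90, SE 0.12, adjusted p = 2.41e-06, limma-voom), and 2 genes at low counts. The aldolase Aldoc read 2.85, 0.921 and 1.08 CPM in neutrophils and 11.2, 5.99 and 8.99 CPM in macrophages. It summed to 15 and 84 counts, a ratio of 5.36 with a 95% counting interval of 3.07 to 10, and with 2 neutrophil libraries about the floor of 3 counts the size is uncertain. It passed the filter through the macrophage libraries, and a minimum of 10 counts in every library left it untested. The muscle-type phosphofructokinase Pfkm summed to 18 and 38 counts, a ratio of 2.02 with a 95% counting interval of 1.13 to 3.76 (adjusted p = 0.0427, limma-voom), and passed neither with the replicate number as a block (adjusted p = 0.0501) nor in 5 of 6 fits with a library removed. Aldoa, Pfkl and Pgam1 did not pass, with 95% intervals of -0.29 to 0.15, -0.30 to 0.53 and -0.63 to 0.45.

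At the fate of pyruvate, the 2 kinases differed in opposite directions, as did lactate export and lactate dehydrogenase. Pdk1 was 6.54-fold higher in macrophages, at 49.6, 54.5 and 37 CPM against 7.59, 7.37 and 6.12 CPM (log2 fold change 2.71, SE 0.25, adjusted p = 2.27e-08, limma-voom). Pdk3 was lower, at 17.8, 17.1 and 17.6 against 46.8, 40.5 and 50.1 CPM (log2 fold change -1.37, SE 0.17, adjusted p = 1.35e-06, limma-voom). The fall of Pdk1 with CGRP was in the cell type with the higher saline level. Slc16a3 was at 0.115 of the neutrophil level in saline macrophages (log2 fold change -3.12, SE 0.13, adjusted p = 3.83e-13, limma-voom), while both lactate dehydrogenases were higher. Ldha was 1.29-fold higher (0.37, adjusted p = 0.00357 on the log2 scale), and Ldhb read 35.1, 43.9 and 28.5 CPM in neutrophils and 70.9, 75.8 and 71.2 CPM in macrophages (log2 fold change 1.03, SE 0.16, adjusted p = 1.23e-05, limma-voom). Mpc2 was lower (-0.76, adjusted p = 1.29e-05, limma-voom), and Mpc1, Pdha1 and Slc16a1 did not pass, with 95% intervals of -0.38 to 0.14, -0.48 to 0.10 and -0.96 to 0.68. The pentose phosphate enzymes G6pdx (-1.03, adjusted p = 2.65e-07) and Pgd (-1.37, adjusted p = 1.52e-08), which make NADPH, were lower in macrophages by limma-voom.

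Beyond the 35, 93 other genes of the same pathways were followed, of which 62 were tested for CGRP in neutrophils and 59 in macrophages. In neutrophils 3 were higher and 0 lower, beside 1.51% and 1.02% of all genes tested, and 11 were at an unadjusted p under 0.05, beside 12.8% of all genes. The higher ones were Ldhc (values above), Hif1a, the oxygen-regulated subunit of HIF-1, and Slc16a6, a monocarboxylate transporter of the same family as Slc16a3. Hif1a rose from 47.7, 50 and 46.5 to 109, 88.6 and 99.1 CPM (log2 fold change 1.04, SE 0.12, adjusted p = 1.09e-05, limma-voom), without overlap. Slc16a6 rose from 41.1, 32.2 and 44.7 to 58.2, 66 and 58.3 CPM (log2 fold change 0.67, SE 0.14, adjusted p = 0.00866, limma-voom), and held in 4 of 6 fits with a library removed. The opposite strand at Slc16a6 carries Amz2 and Arsg, whose counts together exceed its own, and the strand setting of the counting is not given in the sources used here.

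In macrophages 5 of these genes were higher and 1 lower, beside 3.46% and 3.97% of all genes tested. Of the 59 tested there, 14 were at an unadjusted p under 0.05, beside 19.8% of all genes. Hif1a rose there as well, from 51.1, 44.1 and 50.7 to 99, 110.1 and 128 CPM (log2 fold change 1.20, SE 0.15, adjusted p = 8.39e-05, limma-voom), and the folds were 2.06 in neutrophils and 2.3 in macrophages. Emb, which encodes embigin, a partner protein of monocarboxylate transporters, rose from 158, 149 and 154 to 326, 339 and 355 CPM (log2 fold change 1.15, SE 0.12, adjusted p = 1.55e-05, limma-voom). Among known HIF-1 targets, Mxi1, a Myc antagonist, rose from 8.61, 7.49 and 10.8 to 54.2, 53.9 and 54.8 CPM, beside 57.2, 45.1 and 55.8 CPM in neutrophils with saline. Vegfa, the endothelial growth factor, rose by 2.52 and Ddit4, an inhibitor of mTORC1, by 3.10 on the log2 scale (adjusted p = 1.70e-05 and 0.00188, limma-voom). Ddit4 read 0.574, 1.8 and 0.36 CPM in the saline macrophages, about the floor of 3 counts, so the size of its rise is uncertain. It passed the filter through the CGRP libraries, and a minimum of 10 counts in every library left it untested. Ndrg1, also a known HIF-1 target, fell from 16.6, 17.7 and 27 to 7.21, 11.5 and 6.54 CPM (log2 fold change -1.23, SE 0.30, adjusted p = 0.0176, limma-voom). The list of HIF-1 subunits, regulators and targets held 4 higher, 1 lower and 12 not called of 17 tested in macrophages, and 1 higher of 18 in neutrophils. Hif1a itself is among the higher genes in both. The 35 members, several of them known HIF-1 targets, are not in this list. Of the 34 members tested in macrophages, 1 was higher (Slc16a3) and 1 lower (Pdk1), and HIF-1 activity was not tested. The other pentose phosphate genes and other glycogen genes had 0 calls in either cell type by limma-voom, with 2 and 1 of them at an unadjusted p under 0.05 in neutrophils and 1 and 2 in macrophages, beside 12.8% and 19.8% of all genes tested.

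**Figure D4:**
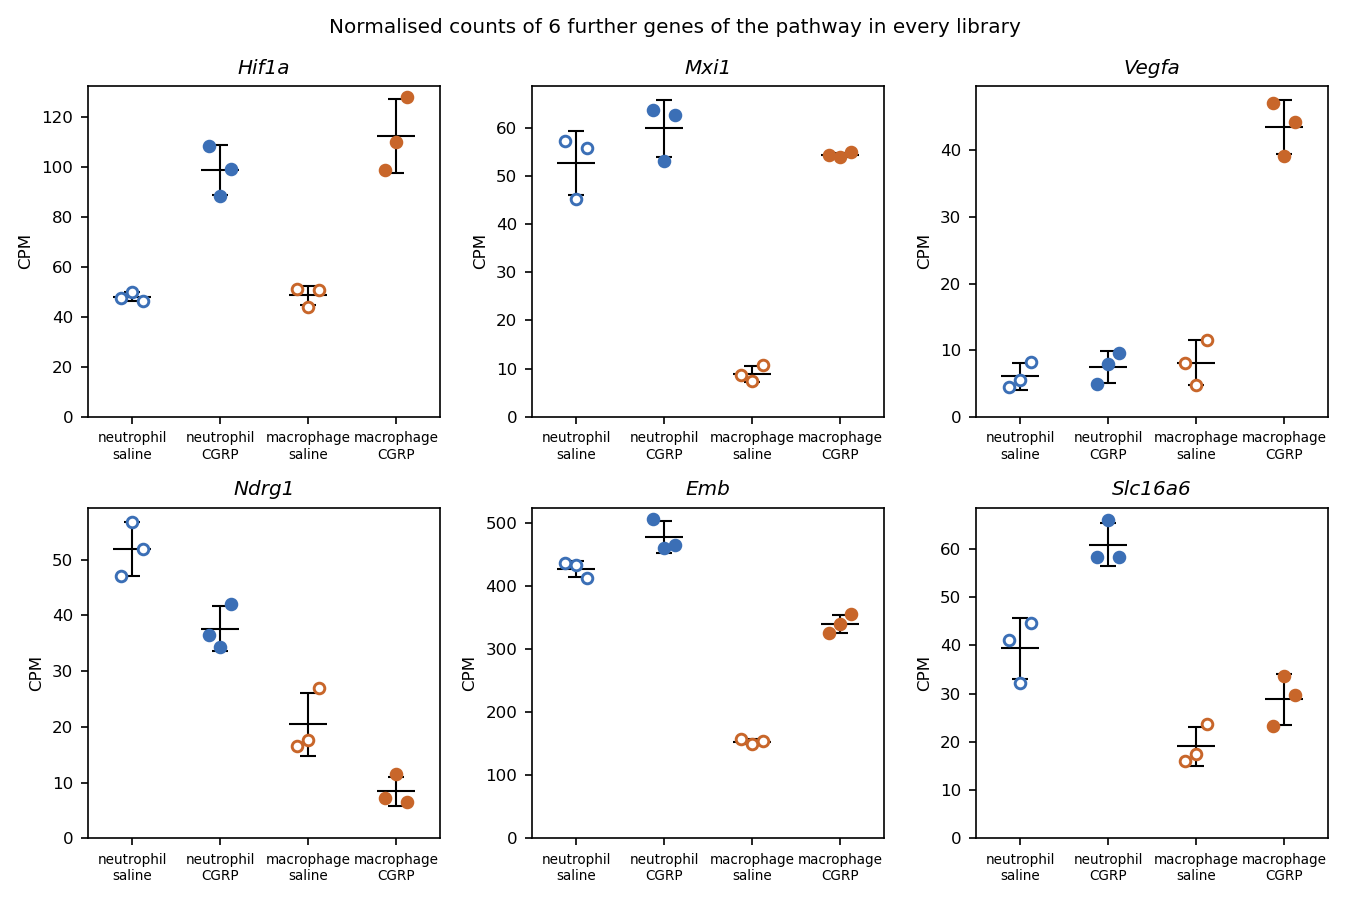
CPM of 6 further genes of the pathway in each library (points, open for saline and filled for CGRP, blue for neutrophils and orange for macrophages) with the group mean and SD (bars), n = 3 libraries per group, each panel with its own linear axis from 0. Hif1a is higher with CGRP in both cell types, Mxi1, Vegfa and Emb rise and Ndrg1 falls in macrophages, and Slc16a6 rises in neutrophils.

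Between the saline cell types, 35.5% of all genes tested were lower and 33.0% higher in macrophages, and the counts of the further lists stand beside these shares with no test of the lists. Of 13 other glycogen genes tested, 9 were lower in macrophages and 3 higher. Ppp1r3b and Ppp1r3d, which bring protein phosphatase 1 to glycogen, were lower, with log2 fold changes of -3.05 (adjusted p = 8.96e-10) and -3.23 (adjusted p = 1.98e-08), whereas Gaa, the lysosomal glycogen-degrading enzyme, was higher (2.29, adjusted p = 6.39e-08). Of 8 other pentose phosphate genes, 4 were lower, among them transketolase Tkt (-1.62, adjusted p = 2.59e-10) and transaldolase Taldo1 (-1.40, adjusted p = 1.45e-09), and 1 was higher. Of 12 other pyruvate and monocarboxylate genes, 6 were higher, among them Slc16a7, the transporter MCT2 (2.53, adjusted p = 1.03e-05), and the pyruvate dehydrogenase phosphatase Pdp1 (1.97, adjusted p = 1.29e-05), and 3 lower, among them Emb (-1.47, adjusted p = 6.53e-10). Of 19 genes of the HIF-1 list, 9 were lower, among them the oxygen sensor Egln3 (-3.85, adjusted p = 2.02e-07) and Mxi1 (-2.55, adjusted p = 7.92e-09), and 2 were higher. Of 12 other glycolysis and gluconeogenesis genes, 5 were lower and 4 higher. Adpgk, a glucokinase that uses ADP, read 599, 573 and 589.8 CPM in neutrophils and 11.8, 10.2 and 11.1 CPM in macrophages (log2 fold change -5.71, SE 0.18, adjusted p = 4.28e-15, limma-voom). Hexose transporters outside the 35 went opposite ways, Slc2a6 lower (-2.19, adjusted p = 5.08e-08) and Slc2a8 higher (2.88, adjusted p = 5.86e-07). All these values are from limma-voom. Ppp1r3d, Slc16a7, Egln3 and Slc2a8 passed the filter through the cell type with the higher level. A minimum of 10 counts in every library left them untested, so the sizes of these differences are uncertain.

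With CGRP in neutrophils, 0 of the 12 neutrophil and 0 of the 11 tested macrophage markers passed in limma-voom (2 and 1 at an unadjusted p under 0.05). The 5 proliferation markers summed to between 802 and 836 CPM with saline and between 759 and 786 CPM with CGRP, and the 6 T and NK cell markers to between 114 and 130.4 CPM and between 82.7 and 109 CPM. Both sums were lower with CGRP without overlap, while 0 of the 5 and 0 of the 2 markers tested passed in limma-voom (1 of each list at an unadjusted p under 0.05). In the macrophage libraries the 12 neutrophil markers summed to between 307 and 399 CPM with saline and between 423 and 450.0 CPM with CGRP, S100a8 the most abundant, a sum that did not overlap between the groups. The highest of these sums was 0.279% of the lowest in a neutrophil library (161117 CPM), and 0 of the 9 markers tested passed, with 2 at an unadjusted p under 0.05. Ly6g was at 0, 0.899 and 0.719 CPM with saline and 0.313, 0.739 and 0 CPM with CGRP. Of the 5 proliferation markers, 4 fell with CGRP in macrophages (Mki67 -1.46, adjusted p = 0.0457, Top2a -0.73, adjusted p = 0.0432, limma-voom), and their sum went from between 119 and 171 CPM to between 67.9 and 115 CPM. All 12 macrophage markers had a positive log2 fold change with CGRP in macrophages (median 0.21, 4 at an unadjusted p under 0.05), of which 1 passed, Apoe (0.46, adjusted p = 0.0263, limma-voom). Their sum was between 50043 and 55852 CPM with saline and between 59093 and 67788 CPM with CGRP, without overlap. In macrophages the 5 dendritic cell markers summed to between 3.16 and 5.39 CPM with saline and between 6.89 and 9.24 CPM with CGRP. The 5 B cell markers summed to between 31.3 and 32.7 CPM and between 37.2 and 39.9 CPM. Neither sum overlapped, and 1 marker of each list was tested and did not pass in limma-voom. The dendritic cell marker was at an unadjusted p under 0.05 (log2 fold change 1.21, limma-voom). The part of these marker shifts in the changes of Slc16a3, Ldha and Pdk1 was not tested.

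Some levels are uncertain because reads can fall on more than 1 gene. In 9 of the 35 members over 10% of the 31-base sequences in the last 500 bases of the longest transcript occur in other annotated genes, namely Aldoa, Eno1, G6pdx, Gapdh, Gpi1, Ldhb, Mpc1, Pgd and Pgk1, with 84.3% for Eno1 as the highest value. For Slc16a3, Ldha, Pdk1, Pdk3, Slc2a1, Slc2a3, Pygl and Gys1 the share over these bases was 0, although over the whole transcript of Ldha it was 34.2%. A further gene overlaps Gys1, Pfkm, Pfkp, Pgm2 and Tpi1 with over 10% of the member's counts, in the case of Pfkm with more counts than its own (Senp1).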

How the data were processed

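The 12 libraries comprised 3 for each of the 4 groups. Per the study's methods, RNA was made into oligo(dT)-primed 3′ libraries with unique molecular identifiers, and the authors processed the reads with the nf-core RNA-seq pipeline, STAR, GRCm38 and featureCounts. The deposited values are raw counts per gene, 1 table for each cell type. The strand setting and annotation release are not given in the sources used here. A row that names no gene was not found, and no column of other samples was present.

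The 2 tables were joined by gene identifier. Each comparison was fitted across all genes with limma-voom (limma 3.58.1, edgeR 4.0.16, R 4.3.3) after TMM scaling and the default low-count filter, with two-sided tests and Benjamini-Hochberg adjustment at 0.05. CGRP was fitted within each cell type (6 libraries), saline levels over the 6 saline libraries, and the interaction over 12. The number of genes tested was 9819, 9393, 10186 and 10694. CPM values were computed on 1 TMM scale over the 12 libraries. Totals of 2002559 to 3631989 counts set the floor of 3 counts, and intervals from counts cover counting error only. In the saline comparison, same-numbered libraries deviated together (lowest r 0.125, highest 0.217 over 3 pairs), so a fit with the replicate number as a block is given where it changed a call.

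The members and gene lists were chosen with earlier results of these data known. Named genes were members with an adjusted p under 0.05 in a comparison (the 25 with the largest change where more passed), the 8 members Slc2a1, Hk2, Pfkfb3, Ldha, Pkm, Slc16a3, Gys1 and Pygl, and up to 4 genes of smallest adjusted p per further list, of which 1 is not reported here. Other members and Pgk1, Mpc1, Hk3, G6pdx, Ldhb and Pdk3 under CGRP were named after their values were seen. On simulated data, the neutrophil, macrophage, saline and interaction fits recovered 74%, 71%, 80% and 23% of the genes changed by 1 on the log2 scale. As alternatives, DESeq2 1.42.0 and the quasi-likelihood test of edgeR were run, with other scalings, filters and weights, thinning, a replicate block, 1 fit over 12 libraries and leaving out each library. Promoter sequences were from RefSeq (GRCm38.p6), and shared 31-base sequences were counted in GENCODE transcripts with Python 3.11.15.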

Additional observations from a re-analysis of the deposited data

Results flagged for a closer look

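The effect of CGRP differed between the cell types by the interaction test of limma-voom for 7 of the named genes, given here as the log2 fold change in macrophages minus that in neutrophils. Among the members, the difference was 1.15 for Slc16a3 (adjusted p = 0.00112) and 0.97 for Pdk3 (adjusted p = 0.0478). The call of Pdk3 held in only 1 of 12 fits with a library removed. Among the further pathway genes the difference was 0.99 for Emb (adjusted p = 1.06e-04), 2.43 for Mxi1 (adjusted p = 2.80e-06), 2.24 for Vegfa (adjusted p = 0.00532) and 2.66 for Ddit4 (adjusted p = 0.0195). The call of Vegfa was lost with thinning (adjusted p = 0.105) and held in 12 of 12 fits with a library removed, and that of Ddit4 held in 8 of 12, with adjusted p up to 0.112 without the first saline macrophage library. Ddit4 lay about the floor of 3 counts in the saline macrophages, so the size of its difference is uncertain. The fitted value was -3.35 for Ldhc (adjusted p = 0.015), which was higher with CGRP in neutrophils. Ldhc had 1 count over the 3 saline macrophage libraries and 1 over the 3 with CGRP, so this value depends on the prior count and gives neither a size nor a bound. Its call was lost with edgeR and DESeq2 (adjusted p = 0.562 and 0.424) and held in 4 of 12 fits with a library removed. Groups of 3 libraries were not tested for single libraries that stand apart.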

How the results depend on the processing

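The calls of Slc16a3 in both cell types and in the interaction, of Ldha in neutrophils and of Pdk1 in macrophages held under every alternative and with each library left out. Members higher with CGRP in macrophages numbered 2 with edgeR, upper-quartile scaling and the replicate block (Pdk3 added), 2 with thinning (Mpc1), 3 in 1 fit over 12 libraries (Mpc1, Pdk3), 4 with quality weights (Mpc1, Pdk3, Slc16a1), and 1 to 2 with a library left out (Mpc1 without saline library 2, Pdk3 without CGRP library 1). In neutrophils, 1 member was lower without the filter (G6pdx). Members that passed with a more negative change in macrophages than in neutrophils numbered 1 with edgeR, DESeq2 or library totals (Pdk1) and 1 with thinning (Slc2a1), 2 with a minimum of 10 counts in every library, quality weights or the replicate block (Pdk1, Slc2a1), 1 with the block nested in cell type (Pdk1; chosen after seeing the data), and 0 to 1 with a library left out. Members that passed with a more positive change numbered 1 with library totals, no filter or thinning (Pdk3 lost), and 1 to 2 with a library left out.

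All genes called numbered 137 in the fit over 12 libraries in neutrophils (138 to 234 with a library left out), 1406 with quality weights and 1050 in the fit over 12 libraries in macrophages (347 to 765), and 520 with quality weights in the interaction (149 to 328). The sign turned only for changes near 0. In macrophages Gys1 gave -0.0045 with library totals and -0.0082 with thinning (-0.105 to 0.26 with a library left out), and Pkm -0.049 with library totals, -0.0098 without the filter, -0.0052 with the minimum of 10 counts and -0.0045 with thinning (-0.0398 to 0.0766). In neutrophils Hk2 ranged from -0.0486 to 0.104 and Pkm from -0.011 to 0.0491 with a library left out. The interaction of Pkm was 0.0029 with quality weights (-0.054 to 0.071).

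Between the saline cell types, DESeq2 and no filter lost Pfkm and Pgk1, and library totals and upper-quartile scaling lost Hk3 and Pgk1. Thinning lost Pgk1 and left Pfkm untested, and the minimum of 10 counts left Aldoc, Pfkm and Slc2a3 untested. Upper-quartile scaling moved the median of all genes to 0.104 from -0.03. With CGRP the replicate numbers did not pair the libraries (neutrophil r -0.041 to 0.141, macrophage r -0.209 to 0.264). Among the members and the further genes followed under the alternatives, the block changed no other call than those given. The calls of Ndrg1 and of the marker genes with CGRP were not followed in this way. With 3 libraries a group, most changes of 1 on the log2 scale in the interaction were not recovered on simulated data (23%). The cause of these changes was not tested.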
